A study of Homo sapiens with 16 samples.

Results

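The last 15.1 Mb of the long arm of human chromosome 8, from 130 Mb to the end of the assembly, carried 5194 of the 477967 accessible-chromatin peaks listed over 4 groups of MDA-MB-231 breast carcinoma cells. A peak was a member when its summit lay on chromosome 8 at or past 130 Mb of GRCh38. The members numbered 1609 of 129755 peaks in selected cells on soft gel and 1380 of 122591 in selected cells on stiff gel. They numbered 1178 of 109578 in ancestral cells on soft gel and 1027 of 116043 in ancestral cells on stiff gel. The boundary was placed with the peaks private to selected cells already counted, so those counts, and every pileup from the same contrasts, are a description here and carry no test. The 10 Mb before the boundary, with 717, 579, 519 and 529 peaks in the same order, served as the comparison.

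The assay (ATAC-seq) uses a transposase that cuts and tags DNA where nucleosomes are sparse, and the tagged fragments pile up over open promoters and enhancers. The number of fragments over a stretch depends both on how open it is and on how many copies of it the cells carry. Gains of the long arm of chromosome 8 are frequent in breast carcinoma, and its end holds adhesion genes such as PTK2 and ASAP1, the Argonaute gene AGO2, the heat shock factor gene HSF1 and a cluster of zinc finger genes.

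MDA-MB-231, labelled wild type, is a human breast adenocarcinoma line. Its 16 samples formed 4 groups of 4, labelled selected on soft, selected on stiff, ancestral on soft and ancestral on stiff, on polyacrylamide gels of 1 kPa (soft) or 308 kPa (stiff) that carried type I collagen. Selection meant repeated replating for 75 days on gels of unchanged stiffness, and the study's design names cells selected on soft matrix. Whether the cells labelled selected on stiff had been selected on soft or on stiff gel is not given in the sources used here, so below they are called selected cells on stiff gel. All groups derive from 1 line and each has 1 deposited peak list. How its 4 samples were combined is not given in the sources used here either, so no value below has a spread between replicates.

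The lists differed in depth and in what they could show. The background pileup that each list's enrichment rests on was 13.5 fragments in selected cells on soft and 12.6 on stiff gel, against 16.3 in ancestral cells on soft and 20.2 on stiff gel. The lowest listed pileup was 27, 26, 31 and 37 in the same order. Peak numbers are skipped in every list, and each skipped stretch is longer than the widest listed peak, which measured 8443, 7950, 5650 and 5946 bp. Past 130 Mb 72, 69, 47 and 60 numbers are skipped, of which 69, 68, 45 and 58 lie past 140.5 Mb, so gene-dense stretches there are listed only in part and their peaks were not analysed here. A peak of one list that met such a stretch of the other list was called undetermined. Peaks within 1 kb of a gene end were listed for 5 of 5 mesenchymal breast line markers in both selected lists and for 4 of 5 in both ancestral lists, where CD44 lay at a skipped number. Of the luminal markers, 4 of 5 had such a peak in every list and ESR1, the estrogen receptor gene, had none in any. Of the 3 blood markers, 2 had one in selected cells on soft gel, 1 in selected cells on stiff gel and 0 in both ancestral lists, and those pileups of 31 to 34 were close to the lowest listed.

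The boundary itself fell at a peak that all 4 lists share. The first members had pileups of 149 in selected cells on soft gel, 189 in selected cells on stiff gel, 353 in ancestral cells on soft gel and 541 in ancestral cells on stiff gel, with summits within 0.10 kb past 130 Mb. The last peaks before it had pileups of 48, 33, 79 and 139, at -3.27, -7.99, -3.17 and -3.21 kb relative to it. Both lie in CYRIB, which encodes a Rac1-binding protein that restrains actin polymerisation and whose gene crosses 130 Mb.

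All 4 lists were denser past the boundary than before it. Selected cells had 107 peaks per Mb on soft and 91.5 on stiff gel past 130 Mb, and ancestral cells had 78.1 and 68.1. Before the boundary selected cells had 71.7 and 57.9 peaks per Mb, and ancestral cells had 51.9 and 52.9. The density was not even. The first 2 Mb held 173, 113, 118 and 113 peaks in selected soft, selected stiff, ancestral soft and ancestral stiff lists. The stretch between 132 Mb and 139.5 Mb held 463, 314, 242 and 213, with almost none in a desert between 136 Mb and 138.5 Mb, where no 500 kb step had more than 7 peaks in any list. The block from 139.5 Mb to the end held 973, 953, 818 and 701.

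In that last block listed peaks covered 31.3% of the DNA in selected cells on soft and 26.9% on stiff gel, against 19.3% in ancestral cells on soft and 17.6% on stiff gel. In the 10 Mb before the boundary coverage was 6.88% and 5.33% in selected cells, and 5.16% and 5.43% in ancestral cells. The highest coverage of a step was 46.4% in selected cells on soft gel, between 141.5 Mb and 142 Mb, where selected cells on stiff gel had 44.6% and ancestral cells had 14.7% on soft and 14.3% on stiff gel. The neighbouring step from 141 Mb was covered to 41.7% and 38.1% in selected cells and already to 33.0% and 31.0% in ancestral cells. The last block was thus the densest in each of the 4 lists, and the excess in selected cells was uneven within it.

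**Figure D1:**
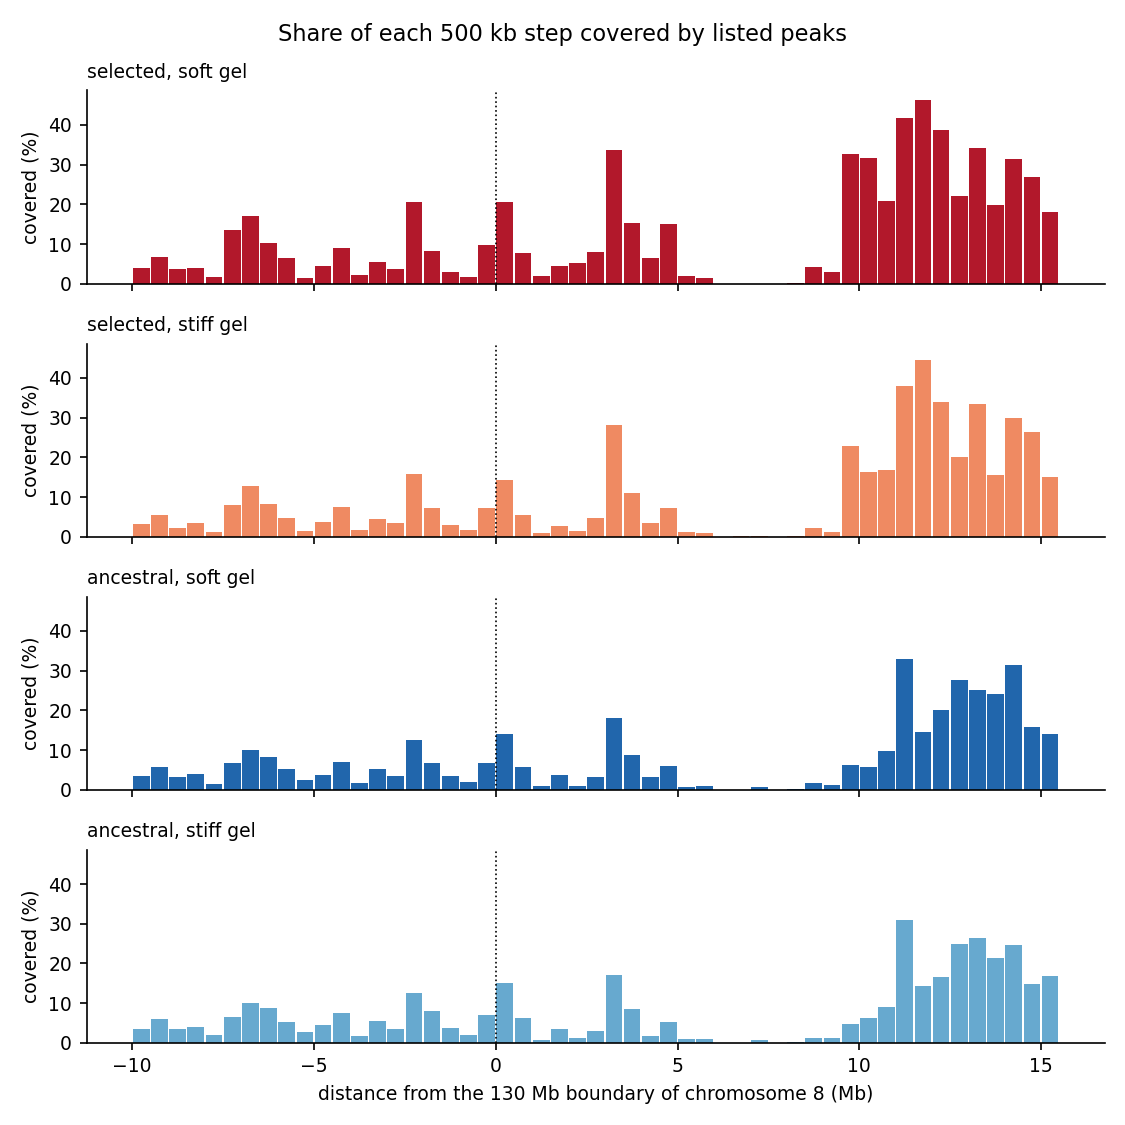
Share of each 500 kb step covered by listed peaks (y axis, percent) against the distance from the 130 Mb boundary (x axis, Mb, dotted line at 0), with 1 panel per peak list. The highest step lies past 139.5 Mb (9.5 Mb on the axis) in all 4 panels, at 46.4%, 44.6%, 33.0% and 31.0% from the top panel down, while no step between 139.5 Mb and 141 Mb exceeds 9.69% in the ancestral lists.

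Selected against ancestral cells on soft gel is the comparison the study was designed around. Peaks that overlapped 1 to 1 between the lists were compared by the log2 ratio of their pileups, centred on the median of all 74078 such pairs of the genome, since pileup was not scaled to depth and the uncentred median was -0.98. Past 130 Mb the median over 564 pairs was 0.61 (quartiles -0.04 and 1.12), and in the 10 Mb before it was -0.03 over 417 pairs (quartiles -0.35 and 0.38). Relative to the 10 Mb before, shared peaks past the boundary thus stood 0.64 log2 units higher in selected cells. That distance was 0.34 when pairs had summits within 200 bp and 0.32 when ratios were centred within 3 classes of peak height. It was 0.13 over the pairs with the authors' −log10 q-value, their measure of significance, at 10 or more in both lists (307 pairs past the boundary and 320 before). Log2 ratios of at least 1 were found in 171 of the 564 pairs (30.3%), against a genome-wide share of 9.55%.

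Read in 500 kb steps, the higher ratios did not start at 130 Mb. The first 2 Mb past the boundary had a median of -0.01 over 90 pairs, close to the 10 Mb before. The median was 0.55 between 132 Mb and 139.5 Mb (179 pairs) and 0.87 from 139.5 Mb to the end (295 pairs). These inner limits were drawn after the step values had been seen. Of the 26 steps past 130 Mb with at least 3 pairs, 14 had a median of at least 0.5, against 0 of the 20 steps before and a genome-wide share of 9.17%. Steps ranged from -0.09 to 1.20 past the boundary and from -0.42 to 0.23 before it, so the ranges overlapped.

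A least-squares division of the profile from 120 Mb to the end into 3 levels placed its edges at 131 Mb and 139.5 Mb. The levels were -0.06 (SD 0.20 over 22 steps), 0.50 (SD 0.31 over 12 steps) and 0.73 (SD 0.41 over 12 steps), and they took up 60.6% of the variance between steps. The first edge rests on the step from 131 Mb, which had a median of 0.64 over 7 pairs, while the step after it had -0.07 over 9 pairs, so the shift did not set in evenly. This edge lies inside ADCY8, which encodes an adenylyl cyclase, with ASAP1 556 kb to its left and EFR3A, whose product anchors a lipid kinase at the plasma membrane, 904 kb to its right. The second edge lies between COL22A1, 586 kb away, and KCNK9, 101 kb away. The first edge moved to 132 Mb with steps of 250 kb, with 1 change point, with covered base pairs and with ratios centred by peak height. With peak counts the edges were 138.5 Mb and 141 Mb, and with a search from 100 Mb they were 111.5 Mb and 132 Mb. An edge between 130.75 Mb and 132 Mb was thus placed under all settings tried but peak counts, as the second edge in the search from 100 Mb. The second edge moved by at least 0.75 Mb under 7 of its 8 alternatives.

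Inside the last block the steps did not form a plateau. Medians were 1.19 in the step from 139.5 Mb, which holds KCNK9 and the start of TRAPPC9, then 0.58, 0.49 and 0.46 in the next 3 steps, and 1.17 and 1.20 in the steps from 141.5 Mb and 142 Mb. They were 0.24 in the step from 142.5 Mb, which covers many of the LY6 family genes, then 1.1, 1.05, 0.77 and 0.49. The last step, which ends with the chromosome and holds 7 pairs, had 0.03. Centred within the 3 classes of peak height, the step medians had a narrower range, from 0.14 in the last step to 0.66 in the step from 143.5 Mb.

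**Figure D2:**
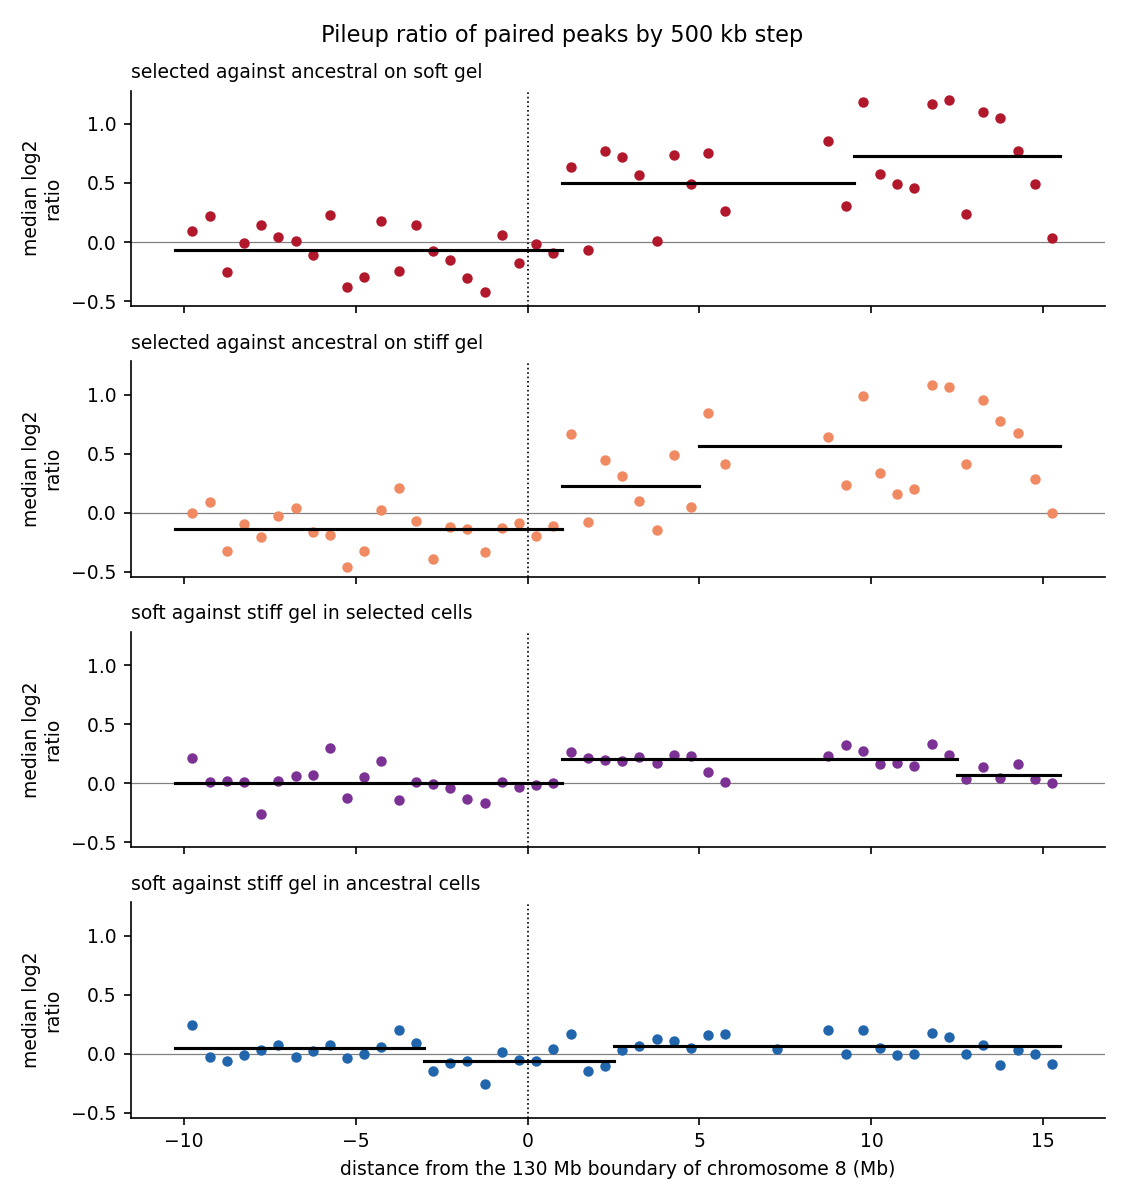
Median log2 pileup ratio of paired peaks per 500 kb step, centred on the genome (y axis), against the distance from the 130 Mb boundary (x axis, Mb), for the 4 comparisons, with points for steps of at least 3 pairs and black lines for the 3 levels of the least-squares division. Steps scatter around 0 up to 1 Mb past the boundary and reach 1.20 on soft and 1.08 on stiff gel beyond it, while both comparisons between gels stay between -0.26 and 0.33.

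The shift was not equal for weak and strong peaks. When the pairs of the genome were split by pileup into 3 equal classes, the weak class of the last block had a median of 1.18 (177 pairs), the middle class 0.29 (52 pairs) and the strong class -0.04 (66 pairs). The genome gave 0.60, -0.11 and -0.23 for the same classes, which leaves differences of 0.58, 0.40 and 0.19. The 10 Mb before gave 0.43, -0.15 and -0.25, below the genome in each class. Weak pairs made up 55.0% of the pairs past 130 Mb, against 33.3% in the genome. At the lowest pileups the lists hold, 27 and 31, the centred ratio is 0.78, so pairs of the weakest listed peaks lie above 0 wherever they are, and weak pairs are to be read against the genome's 0.60.

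**Figure D3:**
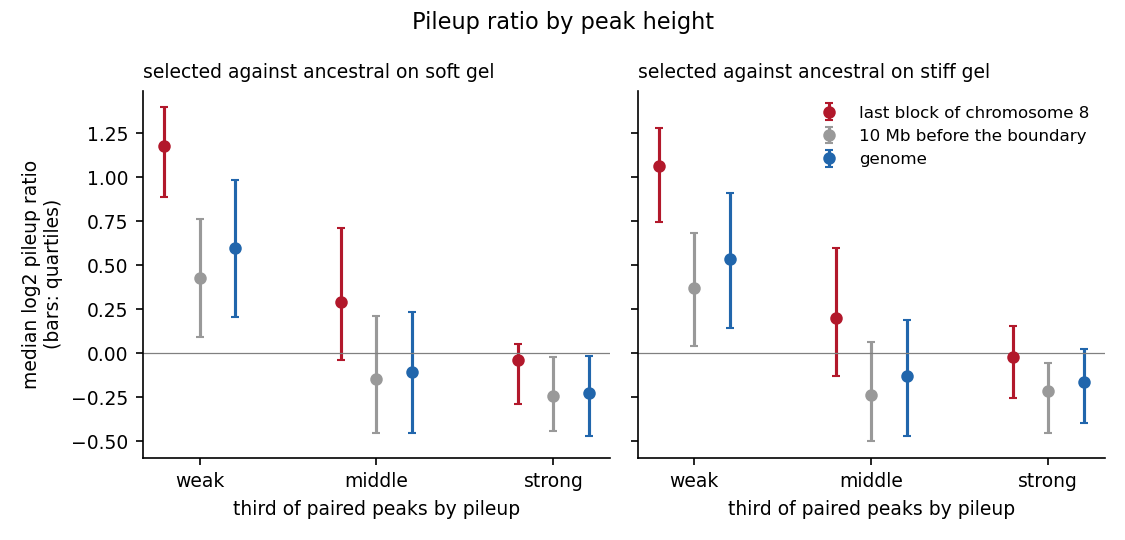
Median log2 pileup ratio of paired peaks (points, with quartiles as bars) for weak, middle and strong pairs, for selected against ancestral cells on soft gel (left) and on stiff gel (right), in the block from 139.5 Mb to the end, in the 10 Mb before 130 Mb and in the genome. The last block lies above both others in every class, by 0.58 over the genome for weak pairs on soft gel and by 0.19 for strong pairs.

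Shared regions among the tallest had ratios near 0, to be read against the genome's strong class, at -0.23 on soft and -0.16 on stiff gel. The region at 144766701 to 144769131, 4.31 kb from ZNF34, had pileups of 2824 in selected cells on soft and 3409 on stiff gel, against 5424 in ancestral cells on soft and 8563 on stiff gel. Its centred log2 ratio was 0.04 on soft gel and -0.09 on stiff gel. The region at 140462852 to 140466171, 5.93 kb from TRAPPC9, had 1729 and 2222 against 3712 and 5410, with ratios of -0.12 and -0.04. The region at the end of ZFAT, which encodes a zinc finger transcription factor, had 1611 and 1808 against 3416 and 4176, with ratios of -0.10 and 0.04. Over 8 such regions past 130 Mb, the highest ratio was 0.04 on soft and 0.14 on stiff gel. A region 2.67 kb from GPIHBP1, with pileups of 3346 on soft and 4350 on stiff gel in ancestral cells, was not among the 8. On soft gel 7 of the 8 lay above the genome's strong class, with a median distance of 0.13, and on stiff gel 6 of the 8, with a median distance of 0.16. That class has lower median pileups, 279 in selected and 678 in ancestral cells on soft gel, than any of the 8 regions. Equally tall regions elsewhere were not compared. The lowest ratio was -0.57 on soft gel, 78.4 kb from NDRG1, a stress-responsive differentiation gene.

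Peaks private to selected cells outnumbered those private to ancestral cells on soft gel. Past 130 Mb 894 of the 1609 selected peaks had no ancestral partner (55.6%, exact Clopper-Pearson 95% interval 53.1% to 58.0%, counting error only), against a genome-wide share of 34.7%. In the other direction 62 of the 1178 ancestral peaks had no selected partner (5.26%, interval 4.06% to 6.70%), against 17.6% in the genome, and 300 more were undetermined. In the genome 4419 of 109544 ancestral peaks were undetermined. With undetermined peaks counted as ancestral-only, the share past 130 Mb lay above the genome's in place of below it. Before the boundary the counts were 278 of 717 (38.8%) and 80 of 519 (15.4%). Because the boundary was chosen on these counts, nothing is read from their distance to the genome. The selected-only share was 43.4% in the first 2 Mb, 56.4% between 132 Mb and 139.5 Mb and 57.3% in the last block. The ancestral-only share was 17.8%, 11.6% and 1.59% in the same order. Undetermined ancestral peaks numbered 0, 4 and 296, the last out of 818. The 1.59% is thus a lower limit, and the fall in this share cannot be read as a trend along the arm.

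The peaks private to selected cells were weak. Their median fold enrichment, the authors' value over each list's own background, was 2.56, the same as for selected-only peaks of the whole genome, and 14.0% of them had a −log10 q-value of at least 10, against 13.3% in the genome. In the last block that share was 19.2%. With the limit set on both lists, 262 peaks past 130 Mb were selected-only. They need not belong to the 894, because an ancestral partner under the limit then no longer counts. Of all 1609 selected peaks 40.6% met the limit, against 57.5% in the genome. No genome-wide share of selected-only peaks at this limit is given here. Of the 894 peaks 60.1% lay in genes, against 60.2% of the selected-only peaks of the genome.

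**Figure D4:**
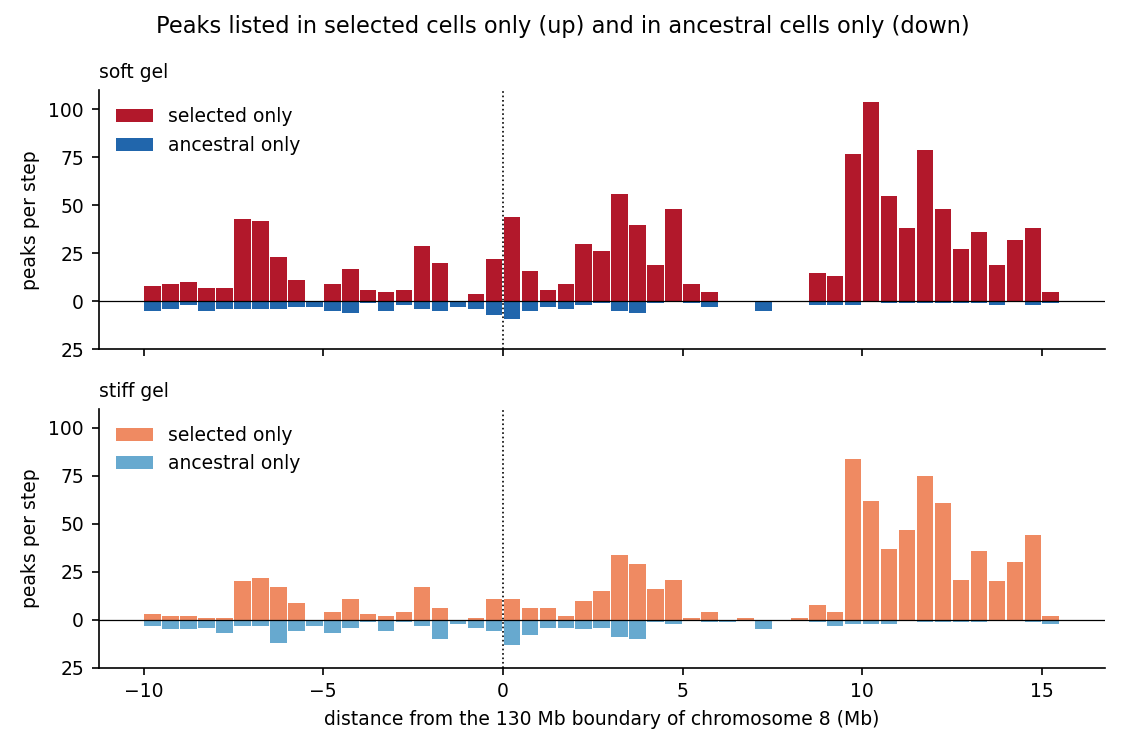
Peaks per 500 kb step listed only in selected cells (bars up) and only in ancestral cells (bars down) on soft gel (top) and stiff gel (bottom), against the distance from the 130 Mb boundary (x axis, Mb), undetermined peaks left out. The step from 140 Mb holds 104 peaks private to selected cells and 0 private to ancestral cells on soft gel.

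The 5 strongest selected-only peaks on soft gel lay in the last block. The strongest, at 141308244 to 141310064, had a fold enrichment of 13.7 and a pileup of 198 and overlapped an end of SLC45A4, a solute carrier gene. The tallest peak within 1 kb of either end of SLC45A4 had a pileup of 198 in selected cells on soft and 570 on stiff gel, against 803 in ancestral cells on soft and 1371 on stiff gel, and 1 peak number is skipped in SLC45A4 in the first of these lists. The next were a peak 14.9 kb from ZNF707 (7.12), one 0.49 kb from KCNK9 (6.29), one 8.45 kb from PTK2 (6.15) and one 195 kb from C8orf90 (6.15). The strongest ancestral-only peaks were 78.4 kb from ADCY8 (11.5), 20.6 kb from ZNF16 (8.21), 355 kb from ST3GAL1 (7.22), 89.3 kb from EFR3A (6.64) and inside TG and SLA (6.24), and 4 of these 5 lay before 139.5 Mb.

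On soft gel the numbers of all listed peaks differed less from the 10 Mb before than coverage and pileup did. The log2 ratio of selected to ancestral peak numbers on soft gel was 0.45 past 130 Mb (95% interval 0.34 to 0.56, counting error only) and 0.47 in the 10 Mb before (interval 0.30 to 0.63), a difference of -0.02. Over peaks with a −log10 q-value of at least 10 that difference was 0.30. For covered base pairs the ratio past the boundary was 0.32 higher than before it. By stretch, both ratios were highest between 132 Mb and 139.5 Mb, at 0.94 for number and 1.05 for coverage. In the first 2 Mb they were 0.55 and 0.49. In the last block the number ratio was only 0.25 while the coverage ratio was 0.70. There 79 of 367 regions with peaks of both lists joined 1 selected peak to more than 1 ancestral peak (21.5%), and 21 joined 1 ancestral peak to more than 1 selected peak (5.72%). In the genome these were 3640 (4.61%) and 3388 (4.29%) of 78924 regions. On stiff gel the counts in the last block were 53 (14.3%) and 54 (14.6%) of 371 regions, against 3059 (3.63%) and 4591 (5.45%) of 84188 in the genome. Peaks of at least 3 kb made up 18.7% of the selected list on soft and 14.2% on stiff gel in this block, against 8.92% and 10.7% of the ancestral lists, and 6.29%, 5.74%, 3.99% and 4.69% over the genome. The widest, 8314 bp at 141488604 to 141496917 near C8orf90, spanned 3 ancestral peaks on soft and 2 on stiff gel. A wide peak counts once however many peaks of another list it spans.

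In all, 126 protein-coding genes overlap the region, and 106 of them held a peak summit in at least 1 list. On soft gel 49 held more selected-only than ancestral-only peaks (38.9%), with a genome-wide share of 34.5%. In the 10 Mb before that share was higher, at 17 of 34 genes (50%). More ancestral-only peaks were held by 0 genes, with 11.7% in the genome and 11.8% in the 10 Mb before, and 77 held equal numbers. The 0 rests on the undetermined peaks being set aside, which in these genes were 194 ancestral and 15 selected peaks. With them counted as list-only, 44 genes held more selected-only and 43 more ancestral-only peaks, against 6790 and 2975 of 19974 genes in the genome. The same limit applies to each count by group below, and gene counts by group are to be read against the genome's 34.5% and 11.7%. Peak totals by group are to be read against 44951 selected-only and 19299 ancestral-only peaks in the genome on soft gel, inside genes or not. The median over the 56 genes with a pair was a centred log2 ratio of 0.80. The genes below are grouped by role, the groups were drawn up with earlier results of these data known, and counts give peak summits within the annotated gene.

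Among the 8 genes of adhesion, cytoskeleton and polarity, 4 held more selected-only peaks on soft gel and 0 held more ancestral-only ones, with 95 against 9 peaks in all. ASAP1, an Arf GTPase-activating protein of focal adhesions at 130052104 to 130443674, held 72 peaks in selected cells on soft and 41 on stiff gel, against 48 in ancestral cells on soft and 45 on stiff gel. Its 36 pairs on soft gel had a median ratio of 0.06, so ASAP1, which ends left of the first edge, had more peaks but not taller shared ones. PTK2, focal adhesion kinase, held 51 and 24 peaks in selected cells and 16 and 15 in ancestral cells. In PTK2 36 peaks were selected-only and 1 ancestral-only on soft gel, and the median ratio was 0.65 over 14 pairs. ARHGAP39 held 38 and 36 peaks in selected cells and 19 and 16 in ancestral cells, with 23 selected-only and 0 ancestral-only on soft gel. CCN4, a secreted matricellular protein of the WNT response, held 16, 14, 11 and 7 peaks in the same order of groups. CYRIB, counted over its whole length across the boundary, held 31, 16, 13 and 12.

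The trafficking and metabolism genes held the most private peaks, 193 selected-only against 1 ancestral-only over 12 genes on soft gel, and TRAPPC9 alone supplied 153 of them. TRAPPC9, a subunit of a vesicle-tethering complex, spans 731 kb from 139727725 to 140458579. It held 200 peaks in selected cells on soft and 159 on stiff gel, against 53 in ancestral cells on soft and 38 on stiff gel, and no peak number is skipped in it. Per 100 kb that is 27.4 and 21.8 peaks against 7.25 and 5.20. The tallest peak within 1 kb of its ends had pileups of 741 and 978 against 1680 and 2209, while its 41 pairs had a median ratio of 0.94. ST3GAL1, a sialyltransferase, held 35 and 27 peaks against 22 and 21, with a median ratio of 0.90 over 15 pairs. SLC45A4 held 27 and 27 peaks against 26 and 19, with 1 and 2 numbers skipped in selected cells, and they covered 70.0 kb and 35.1 kb in selected cells and 25.5 kb and 20.2 kb in ancestral cells. DENND3, a Rab exchange factor, held 21 and 24 peaks against 12 and 11, with a median ratio of -0.02 over 7 pairs.

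Of the 7 chromatin, replication and stress genes, 3 held more selected-only peaks on soft gel and 0 more ancestral-only ones, and ZFAT supplied 49 of their 53 selected-only peaks. ZFAT held 72 and 40 peaks in selected cells, against 23 and 14 in ancestral cells, with a median ratio of 0.87 over 20 pairs. CHRAC1, a histone-fold subunit of chromatin-remodelling complexes, held 2, 2, 1 and 1 peaks, and its 1 pair had a ratio of -0.28 on soft gel. HSF1, the heat shock transcription factor, held 5 and 7 peaks against 6 and 3, with 1 number skipped in each list. TONSL, a replication fork repair factor, held 0 listed peaks in both selected lists and 1 in each ancestral list, but 3 and 2 numbers are skipped there in selected cells, so the difference cannot be read from the lists.

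Of the 9 RNA handling genes, 5 held more selected-only peaks on soft gel and 0 more ancestral-only ones, and 51 of their ancestral peaks were undetermined. AGO2, the Argonaute protein that cleaves targets of small RNAs, held 23 and 33 peaks in selected cells against 29 and 22 in ancestral cells. They covered 54.3 kb and 54.2 kb against 32.2 kb and 29.2 kb, and 13 were selected-only and 0 ancestral-only on soft gel, with 14 ancestral peaks undetermined. ZC3H3, a zinc finger protein of mRNA export, held 5 and 4 listed peaks against 28 and 20, with 4 and 6 numbers skipped in selected cells, and 27 of its 28 ancestral peaks on soft gel are undetermined. BOP1, a ribosome biogenesis factor, held 3 and 3 against 7 and 3, with 2, 2, 0 and 4 numbers skipped and 5 of the 7 undetermined, so these counts cannot be compared. KHDRBS3, an RNA-binding splicing regulator, held 7 and 7 against 4 and 4, with a median ratio of 1.04 over 4 pairs on soft gel and no skipped number.

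Of the 9 neuronal, channel and secretory genes, 6 held more selected-only peaks on soft gel and 0 held more ancestral-only ones, with 111 against 9 peaks in all. TG, thyroglobulin, held 68 and 42 peaks in selected cells against 29 and 25 in ancestral cells, with 41 selected-only against 2 ancestral-only on soft gel, and no peak lay within 1 kb of its ends in any list. KCNQ3, a voltage-gated potassium channel subunit, held 21 and 9 against 4 and 6. KCNK9, a potassium leak channel, held 28 and 27 against 15 and 14, with a median ratio of 1.19 over 11 pairs. COL22A1, a collagen of tissue junctions, held 22 and 13 against 10 and 7. ADCY8, which holds the first edge, held 16 and 11 against 9 and 11. TSNARE1, a SNARE-domain protein, held 25 and 29 listed peaks against 43 and 45. In TSNARE1 5 numbers are skipped in each selected list, and 26 of the 43 and 24 of the 45 ancestral peaks are undetermined, so these counts cannot be compared either. The listed peaks covered 72.0 kb and 66.3 kb against 46.5 kb and 50.6 kb, and 9 pairs had a median ratio of 1.20 on soft gel. ADGRB1, an adhesion receptor, held 2 and 0 listed peaks against 21 and 8, with 6 numbers skipped in each selected list, 3 in ancestral cells on soft and 8 on stiff gel.

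**Figure D5:**
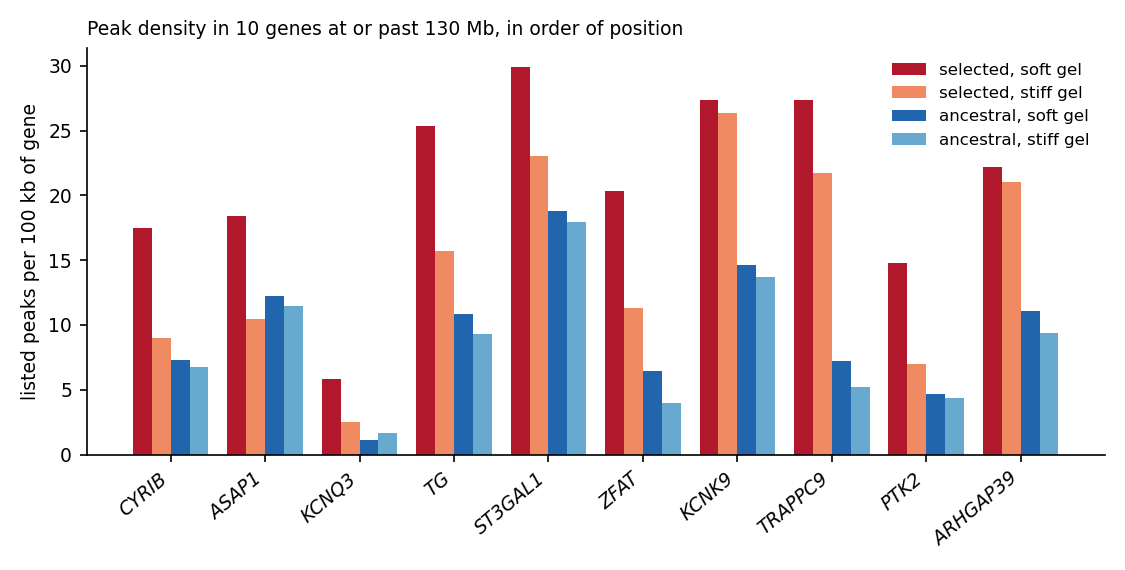
Listed peaks per 100 kb of gene (y axis) in the 10 protein-coding genes with the most selected-only peaks on soft gel, in order of position, with 1 bar per list. The bar of selected cells on soft gel is the highest in each gene, from 5.83 in KCNQ3 to 29.9 in ST3GAL1. The choice of genes by selected-only peaks on soft gel favours this, so nothing is read from it. ASAP1 and CYRIB, at the boundary, differ from ancestral cells mainly on soft gel.

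The LY6 family, small surface proteins held by a lipid anchor or secreted, lies past 142.5 Mb. Of its 10 genes 7 held a peak in at least 1 list, and on soft gel 2 held more selected-only peaks and 8 held equal numbers. PSCA, a prostate stem cell antigen, held 1 and 0 listed peaks in selected cells against 2 and 2 in ancestral cells, and LYNX1, a modulator of nicotinic receptors, 0 and 0 against 2 and 1, with 1 and 3 numbers skipped at these genes in each selected list. GML held 5 and 2 against 1 and 2, and LY6H held 1 and 1 against 2 and 1. In the zinc finger cluster 8 of 11 genes held more selected-only peaks on soft gel, 0 held more ancestral-only ones, and the median ratio over 8 genes was 0.71. ZNF251 held 6 and 5 peaks against 3 and 2, ZNF7 held 5 and 5 against 2 and 3, ZNF16 held 5 and 3 against 3 and 3, and ZNF517 held 3 and 4 against 5 and 4.

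The genes listed for the 10 Mb before the boundary had lower ratios. Over 8 of them with a pair the median ratio on soft gel was -0.23. ATAD2, a bromodomain ATPase, was an exception with 0.84 over 5 pairs, and held 9 and 10 peaks in selected cells against 5 and 5 in ancestral cells. FBXO32, a muscle ubiquitin ligase subunit, held 11 and 9 against 9 and 9, and NSMCE2, a SUMO ligase of the SMC5/6 complex, held 4 and 6 against 9 and 11, fewer in selected cells.

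On stiff gel the shift in pileup over all pairs was smaller than on soft gel, and the excess in peak number and coverage over the 10 Mb before was larger. Selected against ancestral cells had a median ratio of 0.31 over 544 pairs past 130 Mb, against -0.12 over 416 pairs in the 10 Mb before, a difference of 0.43. Centred by peak height the difference was 0.34, and over pairs with a −log10 q-value of at least 10 in both lists it was 0.25, both above the 0.32 and 0.13 of soft gel. The log2 ratio of selected to ancestral peak numbers was 0.43 past 130 Mb (interval 0.31 to 0.54) and 0.13 before (interval -0.04 to 0.30), a difference of 0.30. For covered base pairs the ratio was 0.58 higher past the boundary than before it. The first 2 Mb had -0.17, the middle stretch 0.16 and the last block 0.69. Ratios of at least 1 were found in 128 of the 544 pairs (23.5%), with 8.08% in the genome. Of 26 steps 9 had a median of at least 0.5, with 7.37% in the genome and 0 of 20 before the boundary. Past 130 Mb 688 of 1380 selected peaks had no ancestral partner (49.9%, interval 47.2% to 52.5%), with 25.7% in the genome and 23.5% in the 10 Mb before. In the other direction 84 of 1027 ancestral peaks had no selected partner (8.18%), with 19.0% in the genome and 18.0% before, and 186 more were undetermined. In the genome 3081 of 116022 were undetermined. With undetermined peaks counted as ancestral-only, the share past 130 Mb lay above the genome's in place of below it. The division placed its edges at 131 Mb and 135 Mb, the first inside ADCY8 and the second between ZFAT and KHDRBS3. The first edge moved to 139.5 Mb with peak counts and with covered base pairs. It moved to 132 Mb with steps of 1 Mb and to 129 Mb with ratios centred by peak height. With a search from 100 Mb the edges were 114.5 Mb and 131 Mb. In the last block the 3 height classes had medians of 1.06, 0.20 and -0.02, which were 0.53, 0.33 and 0.14 above the genome. Whether any of these values differs between the gels was not tested.

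Gene by gene, TRAPPC9 held 124 selected-only and 2 ancestral-only peaks on stiff gel, ZFAT 25 and 0, TG 23 and 6, ARHGAP39 21 and 0, AGO2 19 and 0, and PTK2 12 and 2. ASAP1 held 8 and 13 and a median ratio of -0.34 over 31 pairs, so this gene at the boundary leaned the other way on stiff gel. Over all 126 genes 45 held more selected-only peaks (35.7%, with 26.3% in the genome and 32.4% in the 10 Mb before). More ancestral-only peaks were held by 2 (1.59%, with 16.7% in the genome and 26.5% in the 10 Mb before). With undetermined peaks counted the numbers were 45 and 35.

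Soft against stiff gel within selected cells gave a small shift. The median over 772 pairs was 0.17 past 130 Mb and 0.03 over 451 pairs before, a distance of 0.14. Centred by peak height that distance was 0.03. Weak pairs made up 56.2% of the pairs past 130 Mb, against 33.3% in the genome. At the lowest listed pileups, 27 and 26, the centred ratio is 0.16, so pairs of the weakest listed peaks lie above 0 wherever they are. The division placed its first edge at 131 Mb, with levels of 0.00 (SD 0.13 over 22 steps), 0.21 (SD 0.08 over 18 steps) and 0.07 (SD 0.07 over 6 steps). By peak height the edges were 126 Mb and 129 Mb. The second edge, 142.5 Mb, lies inside ADGRB1, between TSNARE1 and ARC. With steps of 250 kb, 1 Mb or shifted steps the edges were near 126 Mb and 131 Mb in place of 131 Mb and 142.5 Mb, and the first edge moved under 6 alternatives and the second under 7. Of the 26 steps 25 were above 0, but 0 reached 0.5, with 0.249% in the genome, and 1 of the 772 pairs had a ratio of at least 1, with 0.118% in the genome. Past 130 Mb 528 soft peaks had no stiff partner (32.8%), close to the 232 of 717 (32.4%) in the 10 Mb before, with 21.1% in the genome. The stretches differed, with 41.0% between 130 Mb and 132 Mb, 48.2% between 132 Mb and 139.5 Mb and 24.0% from 139.5 Mb to the end. In the other direction 136 stiff peaks had no soft partner (9.86%), with 15.2% before the boundary and 13.8% in the genome. TRAPPC9 held 83 soft-only and 19 stiff-only peaks, ZFAT 37 and 1, ASAP1 33 and 3, TG 33 and 6, and PTK2 30 and 4. This comparison shares the list of selected cells on soft gel with the first, so its edge is no separate support for the edge in that comparison.

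In ancestral cells soft against stiff gel gave values near those of the genome for pileup. The median over 744 pairs was 0.05 past 130 Mb and -0.00 over 466 pairs before. Of 27 steps 0 reached 0.5, with 0.664% in the genome, and 3 pairs had a ratio of at least 1, with 0.182% in the genome. Soft-only peaks numbered 214 (18.2%), with 7.32% in the 10 Mb before and 8.97% in the genome, and stiff-only peaks 155 (15.1%), with 10.6% before and 15.9% in the genome. The division gave edges at 127 Mb, between LRATD2 and POU5F1B, and at 132.5 Mb, just right of KCNQ3, with 24.1% of the variance taken up, and the first moved under 5 alternatives and the second under 6. TRAPPC9 held 19 soft-only and 4 stiff-only peaks.

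When the 4 lists were merged into regions, 1647 of 2007 regions past 130 Mb had no skipped number in question. The other 360 were set aside, as were 7109 of 163974 regions in the genome. Regions listed in all 4 groups made up 30.5% past the boundary, 45.0% in the 10 Mb before and 45.6% in the genome. Regions of both selected lists and neither ancestral list made up 18.9%, 7.18% and 9.78%, and regions of selected cells on soft gel alone 27.3%, 22% and 13.3%. Regions of both ancestral lists and neither selected list made up 1.40%, 4.05% and 5.64%. Undetermined peaks past 130 Mb on soft gel were mostly ancestral, 300 against 20, so setting regions aside can lower the 1.40%.

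Other long stretches also had ratios above 0. The end of chromosome 7 past 130 Mb had a median ratio of 0.36 on soft gel over 1203 pairs and 0.21 on stiff gel over 1209 pairs. The gene-dense stretch of chromosome 6 from 34 Mb to 44 Mb had 0.82 and 0.60, and its peaks covered 32.8% and 28.6% of it in selected cells and 22.5% and 19.5% in ancestral cells. By height class the whole of chromosome 8 past 130 Mb stood 0.42, 0.20 and 0.10 above the genome on soft gel for weak, middle and strong pairs. The end of chromosome 7 stood 0.29, 0.19 and 0.02 above it, and the stretch of chromosome 6 0.38, 0.12 and 0.06. No test was made of these differences.

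Copy number and local opening cannot be told apart from these lists, because the pileup between peaks was not analysed here and each list has 1 background for the whole genome. The measurements that bear on the question are side by side above. On soft gel an edge lay between 130.75 Mb and 132 Mb in all settings but peak counts, and the second edge moved in 7. Steps ranged between 0.03 and 1.20 inside the last block, and between 0.14 and 0.66 when centred by peak height. That block's shift over the genome was 0.58 for weak and 0.19 for strong pairs. The 8 tall regions compared past 130 Mb stood a median of 0.13 above the genome's strong class, whose median pileups are lower than theirs. When each pileup was divided by its own list's background in place of centring, the medians past 130 Mb were -0.10, -0.25, -0.04 and -0.08 in the 4 comparisons. That scaling moves every pair of a comparison by the same amount, so it changes the sign of the level and by construction leaves the distance from the 10 Mb before as it was.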

How the data were processed

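ATAC-seq peak lists of MDA-MB-231 cells, 1 per group of 4 samples, were used as deposited. Per the submitters' processing notes the tools included Bowtie2 2.4.5 and MACS2 2.2.7.1, the trimmer Trimmomatic 0.36, and FastQC 0.11.4 with MultiQC 1.1 for quality reports, on GRCh38. Filters, calling options and the way samples were combined were not found in these notes. Per the file headers a peak has bounds, a width in bp, a summit, pileup, enrichment and significance columns. The deposited pileup signal is a whole number not scaled to depth, and read totals per sample are unknown here. The deposited fold enrichment is a ratio of pileup plus 1 to a single background per list plus 1. The authors' −log10 q-value served only as a limit; the column of unadjusted significance was left out.

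Peaks were shared at an overlap of at least 1 bp. Pairs overlapped 1 to 1, and their log2 pileup ratio was centred on the genome median; peaks of 1 list are not replicates, so no test was run. Steps of 500 kb entered with at least 3 pairs, and 2 change points with at least 3 steps a level were placed by least squares. Shares carry exact Clopper-Pearson 95% intervals and number ratios the matching exact interval, for counting error only. Counts over the genome cover chromosomes 1 to 22 and X. Genes came from a table of GRCh38.p14 protein-coding genes, which gives no strand or exons.

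The members and gene lists were chosen with earlier results of these data known. The text names up to 4 genes per list with the most peaks, the 10 genes with the most selected-only and the 5 with the most ancestral-only peaks on soft gel, genes at a change point, the 5 list-only peaks of highest enrichment per direction and shared regions among the tallest. The inner limits at 132 Mb and 139.5 Mb, NDRG1 and C8orf90 as nearest genes, and the comparison stretches of chromosomes 6 and 7 were chosen after values were seen. Steps were tested on simulated data. The software was scipy 1.17.1, pandas 2.3.3 and numpy 2.4.6 under python 3.11.15, with figures by matplotlib 3.10.9.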

Additional observations from a re-analysis of the deposited data

Results flagged for a closer look

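ASAP1 and DNAAF11 went opposite ways on the 2 gels. In ASAP1, which lies between the boundary and the first edge, selected-only minus ancestral-only peaks came to 23 on soft gel and -5 on stiff gel. In DNAAF11, a gene of motile cilia just past 132.5 Mb, they came to 2 on soft gel and -1 on stiff gel. Each value rests on 1 list per group, and the difference between the gels was not tested.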

How the results depend on the processing

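No paired analysis was possible because each group has 1 list, and for the same reason no replicate could be left out. Of 136 values under alternatives, 59 kept their place, 73 moved and 4 changed sign; 3 alternatives (merged regions, covered base pairs, edges by peak height) were chosen after seeing the data. The comparisons below run in the order selected against ancestral on soft gel, selected against ancestral on stiff gel, soft against stiff gel in selected cells and soft against stiff gel in ancestral cells. Median pileup ratios changed sign when scaled to each list's background (-0.10, -0.25, -0.037 and -0.077), which moves all pairs of a comparison alike. They were 0.13, 0.17, 0.12 and 0.015 with a −log10 q-value of at least 10, and 0.27, 0.23, 0.067 and 0.012 when centred by peak height. With summits within 200 bp the first 3 were 0.34, 0.21 and 0.14, and centring on the 10 Mb before gave 0.14 in selected cells between gels. With a −log10 q-value of at least 10 in both lists, selected-only peaks numbered 262 and 189, soft-only 109 and 34, and stiff-only 49 and 99. With undetermined peaks counted, ancestral-only peaks numbered 362 of 1178 on soft and 270 of 1027 on stiff gel. Counted alike, the genome's shares were lower than these, so this choice reverses the direction of the difference from the genome. Ratios of peak numbers, against -0.02, -0.09 and 0.23 without an alternative, were 0.30 (selected against ancestral on soft gel), 0.13 (gels in selected cells) and 0.069 (gels in ancestral cells) at that limit. Those on soft gel and between gels in selected cells were 0.14 and 0.080 with the 50000 tallest peaks, and 0.21 and 0.14 against the genome.

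Edges were matched in order and moved in 46 of 68 values; median pileup ratios moved or changed sign in 12 and 4 of 24, ratios of peak numbers moved in 7 of 12 and list-only counts in 8 of 32. On soft gel the edges were 132 and 144.25 Mb with steps of 250 kb, 138.5 and 141 Mb with peak counts, 111.5 and 132 Mb with a search from 100 Mb and 132 and 142.5 Mb with covered base pairs; the first alone moved to 132 Mb with 1 change point and by peak height, and the second alone to 134 (1 Mb), 138.75 (shifted) and 141.5 Mb (3 change points). On stiff gel they were 139.5 and 141 Mb (peak counts), 114.5 and 131 Mb (search from 100 Mb) and 139.5 and 142.5 Mb (covered base pairs); the first alone moved to 132 (1 Mb) and 129 Mb (peak height), the second alone to 141.5 Mb (3 change points). In selected cells between gels they were 126.25 and 131.25 (250 kb), 126 and 131 (1 Mb), 126.25 and 130.75 (shifted), 130 and 135.5 (peak counts), 111.5 and 131 (search from 100 Mb) and 126 and 129 Mb (peak height), and the second alone moved to 137 Mb (covered base pairs). In ancestral cells they were 133 and 140 (1 Mb), 133.25 and 139.75 (shifted), 134 and 140 (peak counts), 101.5 and 115.5 (search from 100 Mb) and 133.5 and 135 Mb (covered base pairs), and the second alone moved to 129 Mb (250 kb). The cause of these moves was not tested. Depth limits weak peaks: none can be listed below a pileup of 27, 26, 31 or 37.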
